A study of Mus musculus with 11 samples.

Results

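The data described here are the 6 arrays whose genotype label reads PyMT, out of 11 arrays in the series. Each array carried RNA of 1 mammary tumour from a female mouse aged 12 weeks, snap frozen at collection and profiled as whole tissue on the Illumina Mouse WG-6 v2.0 BeadChip, a glass array of gene-specific probes. All 6 tumours came from mice that were transgenic for PyMT and did not carry the Sirt6BAC allele, a transgene from which more SIRT6 is made. The other 5 arrays, from PyMT mice with that allele, were left out, and no comparison with them was made. The labels give neither the promoter that drives the PyMT transgene nor the strain background of the mice, and they do not say whether each tumour came from a different mouse. The tumours are numbered 1 to 6 in deposit order, and the labels do not say whether that order follows a chip or a run. Values for the 6 tumours are always listed in that order.

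PyMT is the middle T antigen of the mouse polyomavirus, a membrane-anchored oncoprotein that recruits Src family kinases and the signalling adaptors of activated growth factor receptors. Expressed in mammary epithelium, it gives rise to tumours in several glands of the same animal, and these tumours lie in a fat pad that also holds blood vessels, nerves and remaining ducts and borders on skin and body wall muscle. A frozen piece of such a tumour is a mixture of carcinoma cells that keep a partly secretory, luminal character and of the tissue around them. Transcripts that differ between pieces can therefore come from the tumour cells, from infiltrating cells or from neighbouring tissue, and in bulk RNA a smaller number of cells of a type and less RNA per cell cannot be told apart.

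Every array reported 45281 probes. Sorted by size, the intensities of any array differed from those of the others by at most 0.33%, so the values had been brought to a shared distribution before deposit, with a median of 7.30 and a maximum of 15.29 on the log2 scale. A gene was represented by the probe with the highest mean over the 6 tumours, which gave 19057 genes, and 5369 of them had a mean intensity above 300. Markers of luminal mammary epithelium were in place, with mean log2 intensities of 12.78 ± 0.39 (SD, n = 6) for the keratin gene Krt8, 11.56 ± 0.35 for its partner Krt18 and 9.43 ± 0.30 for Cdh1, which encodes E-cadherin. The single probe of Epcam, another epithelial marker, read between 7.16 and 7.35 and so stayed near the median of all probes, as did the probes of the hormone receptor genes Esr1 (7.22 to 7.40) and Pgr (7.23 to 7.33).

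Ribosomal proteins were the largest group among the genes with the brightest probes. Rplp1, a protein of the ribosomal stalk, had the highest mean log2 intensity (15.26 ± 0.08). It was followed by Lcn2, the secreted siderophore-binding protein lipocalin 2 (15.24 ± 0.04), and by Eef1a1, the elongation factor that delivers aminoacyl-tRNA to the ribosome (15.16 ± 0.03). Of the 30 genes with the highest means 16 encoded cytosolic ribosomal proteins, among them Rps2, Rps9, Rps29, Rpl41 and Rpl38. The secretory character of the gland was present in this top group as well. Csn3, the milk protein kappa-casein, read 14.97, 15.10, 15.13, 14.86, 15.06 and 15.08. Mfge8, a glycoprotein of the milk fat globule membrane, had a mean of 14.92 ± 0.20, and Trf, the iron carrier transferrin, a mean of 14.82 ± 0.17. Fth1, the heavy chain of the iron store ferritin, Dbi, an acyl-CoA binding protein, Gpx1, a glutathione peroxidase, Atp5b, a subunit of the mitochondrial ATP synthase, and Igfbp5, a binding protein for insulin-like growth factors that is made by the involuting gland, were also among the 30, with means from 14.56 for Gpx1 to 14.95 for Dbi. Among the 100 genes with the highest means there were 35 cytosolic ribosomal proteins, 9 subunits of oxidative phosphorylation, 5 histones, 3 milk and secretory genes and 2 transcripts of the mitochondrial genome.

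Intensities of different probes also reflect how well each probe binds, so the order of these genes is an order of signals and not of transcript numbers. At the top of the scale it is further compressed, since all arrays share 1 distribution: Rplp1 held the highest intensity of the array, 40180.3, in 4 of the 6 tumours. The abundant genes also had a small spread. Their median SD between tumours was 0.17 over the top 100, against 0.22 over all 5369 genes, and Rps29 had the smallest SD of all genes above 300 (0.02). Hspa8, a constitutive heat shock chaperone with a mean of 13.33, varied as little (0.03). The exceptions were few: 5 of the 100 had an SD above 0.5 and 1, the milk protein gene Ltf, an SD above 1.

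The spread between tumours, given as the SD of log2 intensity over the 6 arrays, was small for most genes and large for a short tail. The median was 0.22, the 90th percentile was 0.44 and the largest value was 2.59. An SD above 1, a typical deviation of 2-fold or more from the mean, was taken as the mark of a variable gene. It was passed by 56 of 5369 genes (1.04%), while 330 (6.15%) had an SD above 0.5. Just inside this limit were Lpl (1.01), Rbp7 (1.01) and Slc6a15 (1.02), and just outside it Tfcp2l1 (0.99), Npy (0.99) and Krt10 (0.98). Dim and bright genes both contributed: 14 of the 2264 genes with mean intensities from 300 to 600 were variable, as were 7 of the 444 between 2400 and 4800, and the median SD of these classes was 0.20 and 0.24. In 18 of the 56 genes at least 1 tumour read below the median of all probes. For those tumours the level is close to the background of the array and the true fold difference may be larger than the one measured.

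**Figure D1:**
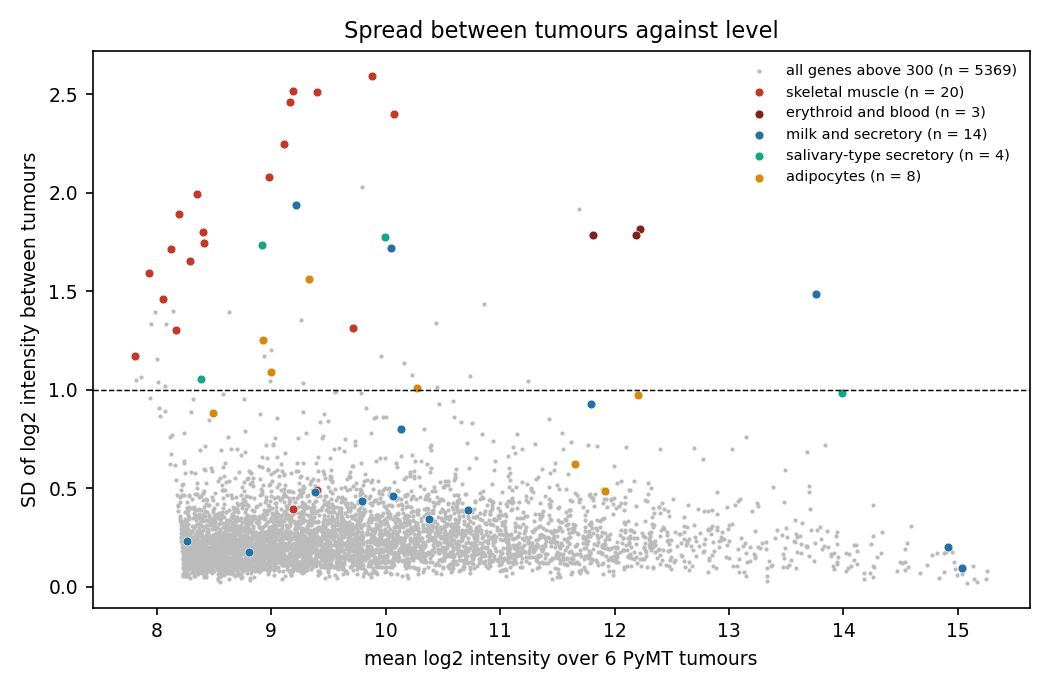
SD of log2 intensity between the 6 PyMT tumours (vertical axis) against mean log2 intensity (horizontal axis) for the 5369 genes above 300, with 5 gene lists in colour and the SD of 1 as a dashed line. Most skeletal muscle genes and all 3 globin genes lie well above the line, and the brightest genes at the right lie close to 0.

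Of the 56 variable genes 32 belonged to a list of genes with a shared function or cell type, and 18 of these were genes of skeletal muscle. The remaining 14 were spread over globins, milk proteins, secretory proteins of the salivary and lacrimal type, adipocyte genes and a translation factor. These counts depend on a single tumour. Without tumour 5 the number of variable genes was 37 in place of 56, with 33 genes in both, and 18 in place of 32 belonged to a list.

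Skeletal muscle genes had the largest spread. Of 34 list members with a probe 20 had a mean above 300, and 18 of these 20 (90.0%, against 1.04% of all genes) had an SD above 1. Tumour 5 was the highest for 19 of the 20, against 19.2% of all genes above 300. Both counts were partly set by the intensity limit. Genes such as Ckm, Actn3 and Ttn read below 300 in every other tumour and passed only through tumour 5. For such genes a large SD and tumour 5 as the highest were fixed by the limit. The mean log2 intensity of the 20 genes was 7.50, 8.64, 7.74, 8.09, 12.16 and 8.62, a span of 4.66 or 25.3-fold. Over all 34 members with a probe, whatever their level, it was 7.39, 8.11, 7.55, 7.75, 10.51 and 8.06, a span of 3.12. Tumours 2 and 6 came next, well below tumour 5. The sarcomere is the repeating unit in which myosin filaments slide along actin filaments under control of troponin and calcium, and each of its parts was represented.

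Among the filament proteins, Acta1, the actin of skeletal muscle, read 7.37, 10.63, 7.96, 8.51, 14.45 and 10.37 and had the largest SD of all genes (2.59). Its probe went from an intensity of 165.2 in tumour 1 to 22422.4 in tumour 5, a 136-fold span. Myl1 and Mylpf encode light chains of fast muscle myosin. Myl1 was at 7.53, 10.54, 8.15, 9.29, 14.25 and 10.66, and Mylpf at 7.48, 8.89, 7.82, 7.73, 13.46 and 9.29. Both had the pattern of Acta1, with tumour 5 far above, tumours 2 and 6 intermediate and tumour 1 lowest. Ttn, the giant spring protein titin, was intermediate in no tumour: it read 11.18 in tumour 5 and 7.17 to 7.36 in the others. Actn3, an alpha-actinin of fast fibres, and Tcap, a titin-binding cap protein of the Z disc, read 11.59 and 12.01 in tumour 5 against at most 7.83 and 8.19 elsewhere.

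The calcium switch followed the filaments. The troponin genes of fast muscle, Tnnc2, Tnni2 and Tnnt3, had SDs of 2.46, 2.08 and 1.89. Tnnc2 read 7.25, 9.06, 7.44, 8.01, 13.88 and 9.33. Atp2a1, the pump that returns calcium to the sarcoplasmic reticulum, read 7.28, 9.96, 7.26, 8.36, 13.99 and 9.56. Pvalb, the calcium buffer parvalbumin, read 7.22, 9.28, 7.43, 7.80, 13.95 and 9.45. These are the proteins of fast fibres. The corresponding genes of slow fibres, Tnni1, Tnnt1, Tnnc1 and Myh7, did not reach a mean of 300, and in tumour 5 they read 7.09, 7.85, 7.55 and 7.21. The energy supply of muscle was in the same group: Ckm, muscle creatine kinase, read 12.39 in tumour 5 and 7.24 to 7.98 in the others, and the muscle enzymes Eno3 and Pgam2 of glycolysis and Cox6a2 of cytochrome c oxidase had SDs of 1.74, 1.46 and 1.65.

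The 2 list members that were not variable are also known outside skeletal muscle: Mb, myoglobin, had an SD of 0.49 and Tpm2, a tropomyosin shared with smooth muscle, an SD of 0.40. Of the 14 members below 300, Ryr1, the calcium release channel, read 9.86 in tumour 5 and 7.16 to 7.40 elsewhere, and Myh4, a fast myosin heavy chain, 8.98 against 7.18 to 7.28. Outside the list, 6 further variable genes known from striated muscle had only tumour 5 in the upper part of their range: Des, the muscle intermediate filament desmin (SD 1.40), Rpl3l, a muscle form of a ribosomal protein (1.40), Fhl1 (1.40), Cmya5 (1.33), Hspb6, a small heat shock protein (1.07), and Csrp3, a LIM protein of the Z disc (1.05). Eef1a2, the elongation factor that takes the place of Eef1a1 in muscle and neurons, read 10.66 in tumour 5 and 7.29 to 7.55 in the others. Des, Rpl3l, Cmya5, Csrp3 and Eef1a2 read below 300 in every other tumour, so the intensity limit fixed tumour 5 as their highest. Eef1a1 stayed within 1.05-fold across all 6, at the top of the scale, where differences are compressed. Without tumour 5 the SD stayed above 1 for 5 of the 18 muscle genes, namely Acta1 (1.46), Myl1 (1.40), Atp2a1 (1.25), Cox8b (1.07) and Pvalb (1.05). Tumours 2 and 6 were then the highest for each of the 5 except Cox8b, where tumours 4 and 6 were.

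The promoters of muscle genes are shown because nearly all of these genes had the same highest tumour. Muscle regulators of the MyoD family bind the E-box, and the form CAGCTG was searched on both strands in the 250 bases before each start site in the RefSeq promoter table (build GRCm38.p6). It was present in 9 of the 15 muscle genes above 300 that had an entry and in 3979 of 27025 genes (14.7%). The 9 include Mb and Tpm2, which were not variable, while Pvalb and Tnnc2, with SDs of 2.52 and 2.46, had no match. The motif thus did not follow the spread. A match is a run of letters and not a binding site. The windows of 60 bases below are given 5′ to 3′ with the E-box in capitals.
Acta1 (chr8:123894964-123895023, minus strand): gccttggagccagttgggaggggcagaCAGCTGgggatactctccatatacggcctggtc
Atp2a1 (chr7:126463096-126463155, minus strand): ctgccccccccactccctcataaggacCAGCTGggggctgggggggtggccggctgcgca
Mylpf (chr7:127211530-127211589, plus strand): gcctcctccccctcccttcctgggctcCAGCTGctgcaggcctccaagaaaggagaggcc

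Globin genes were the next group. All 3 globin genes above 300 were variable, against 1.04% of all genes, with SDs of 1.78 to 1.82. Tumours 1 and 3 were high. Hba-a1, alpha-globin, read 14.41, 9.67, 13.39, 10.48, 11.19 and 11.71, and Hbb-bt, an adult beta-globin, 14.71, 10.09, 14.01, 10.84, 11.43 and 12.25. Tumour 2 was lowest for each, and the mean of the 3 genes spanned 4.63 or 24.8-fold. Probes of Hbb-bt and Hbb-bs target near-identical transcripts and cannot be told apart with certainty. Other genes of red cells were dim. Alas2, the first enzyme of haem synthesis in red cell precursors, read 8.30, 7.68, 8.04, 7.65, 7.63 and 7.51, again highest in tumours 1 and 3, and Slc4a1, the anion exchanger of the red cell membrane, stayed between 7.06 and 7.51. The part of red blood cells in these values was not tested.

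Milk proteins did not vary as a block. Of 14 milk and secretory genes above 300, 3 were variable (21.4%, against 1.04% of all genes), namely Csn2, Csn1s1 and Ltf. The median SD of the 14 was 0.45, and the list mean was highest in tumour 1 (11.53) and lowest in tumour 3 (10.03). Caseins form the micelles that carry calcium in milk. Csn2, beta-casein, read 12.46, 8.47, 7.23, 7.83, 8.83 and 10.50, and Csn1s1, alpha-casein, 13.09, 9.28, 8.26, 9.33, 9.36 and 10.95. Tumour 1 was highest for both, tumour 6 next and tumour 3 lowest, with 37.6-fold and 28.4-fold between the extremes. Wap, whey acidic protein, was also highest in tumour 1 (13.51) and lay between 10.88 and 12.04 in the others, with an SD of 0.93. Glycam1, a mucin-type milk protein below the intensity limit, had the same top sample, at 8.21 against 7.15 to 7.34. Csn3, in contrast, was at the top of the scale in all 6 tumours with an SD of 0.10, but differences there are compressed.

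Another set of secretory genes was set apart by tumour 3 on the low side. Ltf, lactoferrin, an iron-binding antimicrobial protein of milk and mucosal fluids, read 14.99, 14.73, 10.87, 13.98, 14.18 and 13.81, so tumour 3 lay far below the next lowest, tumour 6. Btn1a1, butyrophilin, which coats secreted fat droplets, read 8.58 in tumour 3 and 10.11 to 10.74 in the others. Elf5, the transcription factor of the alveolar lineage, had the same lowest sample in a narrower range (9.99 against 10.69 to 11.13). In all, 8 of the 14 genes were lowest in tumour 3, as were 26.3% of all genes above 300. Lalba, the alpha-lactalbumin gene of lactose synthesis, did not share either pattern: it was highest in tumour 5 (10.08) and lowest in tumour 2 (8.85).

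Casein genes are classical targets of STAT5, the transcription factor activated by prolactin, which binds TTCNNNGAA. This palindrome was present in 2 of the 9 milk genes with a promoter entry (22.2%) and in 8.13% of 27025 genes. The 2 genes were Csn2 and Csn1s1, those with the largest SD of the list. Ltf, the next by SD, and Wap, also highest in tumour 1, had no match. A part of STAT5 in the spread was not tested. The windows of Csn2 and Csn1s1 are shown with the match in capitals.
Csn2 (chr5:87699486-87699545, minus strand): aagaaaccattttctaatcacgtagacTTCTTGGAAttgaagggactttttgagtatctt
Csn1s1 (chr5:87666081-87666140, plus strand): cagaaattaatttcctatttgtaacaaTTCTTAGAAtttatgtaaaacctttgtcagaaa

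Secreted proteins typical of salivary and lacrimal glands formed a further variable set, without a shared order of the tumours. Of 14 list members with a probe 4 were above 300, of which 3 were variable. Mup5, a major urinary protein that carries small lipophilic molecules, read 11.20, 12.69, 7.99, 9.98, 8.28 and 9.87. Bpifa2, parotid secretory protein, read 7.32, 8.16, 7.30, 10.44, 8.73 and 11.56. Dcpp1, a protein of the demilune cells of the sublingual gland, was highest in tumours 3 (9.80) and 6 (9.63) and lay between 7.28 and 7.96 in the rest. It passed the intensity limit only through tumours 3 and 6. Scgb2b27, a secretoglobin, was bright throughout, at 13.91, 14.83, 12.11, 14.66, 14.33 and 14.10, with an SD of 0.98. Tumour 2 was thus highest for Mup5 and Scgb2b27, tumour 6 for Bpifa2 and tumour 3 for Dcpp1. Probes for the Mup genes and for the secretoglobins target closely related family members and cannot be assigned to 1 gene with certainty.

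Genes of related function outside this list also varied. Pip, prolactin-induced protein, a protein of saliva, tears and breast cyst fluid, had the eighth largest SD of all genes (2.03) and read 9.46, 13.18, 8.10, 10.99, 7.66 and 9.36. Mup2 was high in the same pair of tumours, at 12.11 in tumour 2 and 12.51 in tumour 4, but it was lowest in tumour 3 (8.45), while Pip was lowest in tumour 5, where Mup2 read 11.01. Bpifb5, a relative of Bpifa2, instead read 11.10, 7.89, 9.57, 9.67, 7.45 and 9.87, so tumour 2, the top sample for Pip, was near the bottom for this gene. Chia1, an acidic chitinase of saliva and stomach, was high in tumour 6 (9.80) and between 7.11 and 8.40 elsewhere. Smr3a, a submaxillary gland peptide below the intensity limit, also had its highest value in tumour 6 (9.42 against 7.29 to 8.31).

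Adipocyte genes were high in tumours 4 and 5. Of 21 members with a probe 8 were above 300 and 4 of these were variable. The mean of the 8 was 9.36, 10.17, 9.28, 11.23, 11.36 and 9.95, a span of 2.08 or 4.22-fold. Car3, a carbonic anhydrase abundant in fat and in muscle, read 10.95 in tumour 4 and 11.43 in tumour 5 against 7.52 to 9.08 in the others. The hormone gene Adipoq, adiponectin, read 7.52, 8.84, 8.21, 10.39, 10.09 and 8.95. Both were near the background of the array in tumour 1. Dgat2, which makes triglyceride, read 10.16 in tumour 4 and 10.83 in tumour 5 against 7.75 to 8.47 elsewhere. Lpl, the lipase that releases fatty acids from lipoproteins, read 11.69 and 11.30 in the same tumours against 9.13 to 10.11. For Scd1, a desaturase of fatty acids, tumour 2 (12.51) joined tumours 4 (13.07) and 5 (13.44). Of the members below 300, Ucp1 and Cidea, genes of brown fat, were both highest in tumour 5 (8.53 and 9.12), while the probes of Fabp4, Cd36 and Plin1 stayed between 7.15 and 7.45 in all tumours. Leaving out tumour 4 or tumour 5 left 2 variable adipocyte genes in place of 4. Ces1d, a carboxylesterase of fat and liver that was in no list, followed tumours 4 and 5 (10.43 and 10.23 against 7.62 to 8.75).

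Tumour 3 had its own set of high genes. In 7 of the 100 genes with the largest SD it was the only tumour in the upper part of the range. Comp, a matrix protein of cartilage and tendon, read 10.33 in tumour 3 and 7.33 to 7.81 in the others. Stfa1, a stefin that inhibits cysteine proteases, read 11.13 against 7.52 to 9.19. Rbp7, a cellular retinol-binding protein, read 12.40 against 9.53 to 10.60, and Slc6a15, a neutral amino acid transporter, 10.02 against 7.37 to 8.32. Comp read below 300 in every other tumour, so the intensity limit fixed tumour 3 as its highest. Krt10, a keratin of differentiating epidermis, read 11.71 against 8.92 to 9.72, and Krt16, a keratin of stressed or hyperproliferating epidermis, was highest there as well (9.57 against 7.29 to 8.47). Nqo1, a quinone reductase controlled by NRF2, read 11.27 against 8.98 to 10.08. Of 27 epidermis and hair genes with a probe only 3 had a mean above 300, and the third, Dmkn, was lowest in tumour 3 (9.19). Ntrk2, the receptor for brain-derived neurotrophic factor, was high in tumours 3 (10.50) and 6 (9.94) and lay between 7.97 and 9.06 in the others.

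The same tumour was low for a group of epithelial genes. Ltf, Mup2, Scgb2b27, Btn1a1, Apol7a and Tfap2b had all tumours but tumour 3 in the upper part of their range. Tfap2b, a transcription factor of the AP-2 family, read 7.42 in tumour 3 and 8.95 to 10.40 elsewhere. In 11 of the 15 luminal epithelium genes above 300 tumour 3 was lowest, against 26.3% of all genes above 300, including Krt8 (12.23 against 12.59 to 13.40), Krt18 (11.04 against 11.33 to 12.00) and the tight junction gene Cldn3 (11.14 against 11.91 to 12.37). Wfdc2, a secreted protein of the same list, was instead highest in tumour 3 (11.87 against 10.35 to 11.52), and Ly6d was lowest in tumour 1 (8.50). These differences were of moderate size: 0 of the 15 genes had an SD above 1, and the median was 0.35. Kit, the stem cell factor receptor of luminal progenitors, had the largest SD of that list (0.78), at 11.03, 12.15, 10.44, 11.86, 12.55 and 11.22.

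A few variable genes of regulation and transport followed gradients over the tumours. Trps1, a GATA-type repressor of the luminal lineage, read 9.35, 10.23, 8.66, 11.18, 12.42 and 10.78 on its brightest probe. On its other 2 probes above 300 the SD was only 0.44 and 0.31, although tumour 5 was highest on each. Atp2a3, a calcium pump of the endoplasmic reticulum in epithelial and blood cells, read 10.39, 11.89, 9.59, 11.32, 12.17 and 12.08, and Sidt1, a membrane protein related to nucleic acid transport, 8.84, 10.91, 8.42, 10.12, 11.46 and 10.01. Both were lowest in tumour 3 and then tumour 1, and for Atp2a3 tumour 3 held 50.2% of the squared deviation from the mean. Apoc1, an apolipoprotein, ran from 8.58 in tumour 3 to 11.89 in tumour 5. Klk6, a secreted serine protease, instead was high in tumour 1 alone (10.05 against 7.30 to 7.99). It read below 300 in every other tumour, so the intensity limit fixed tumour 1 as its highest. Counted but not described are 2 variable genes with clone names or predicted models. Genes described here that are neither among the 30 with the largest SD nor among the first 4 of a list by SD were chosen after their values were seen.

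**Figure D2:**
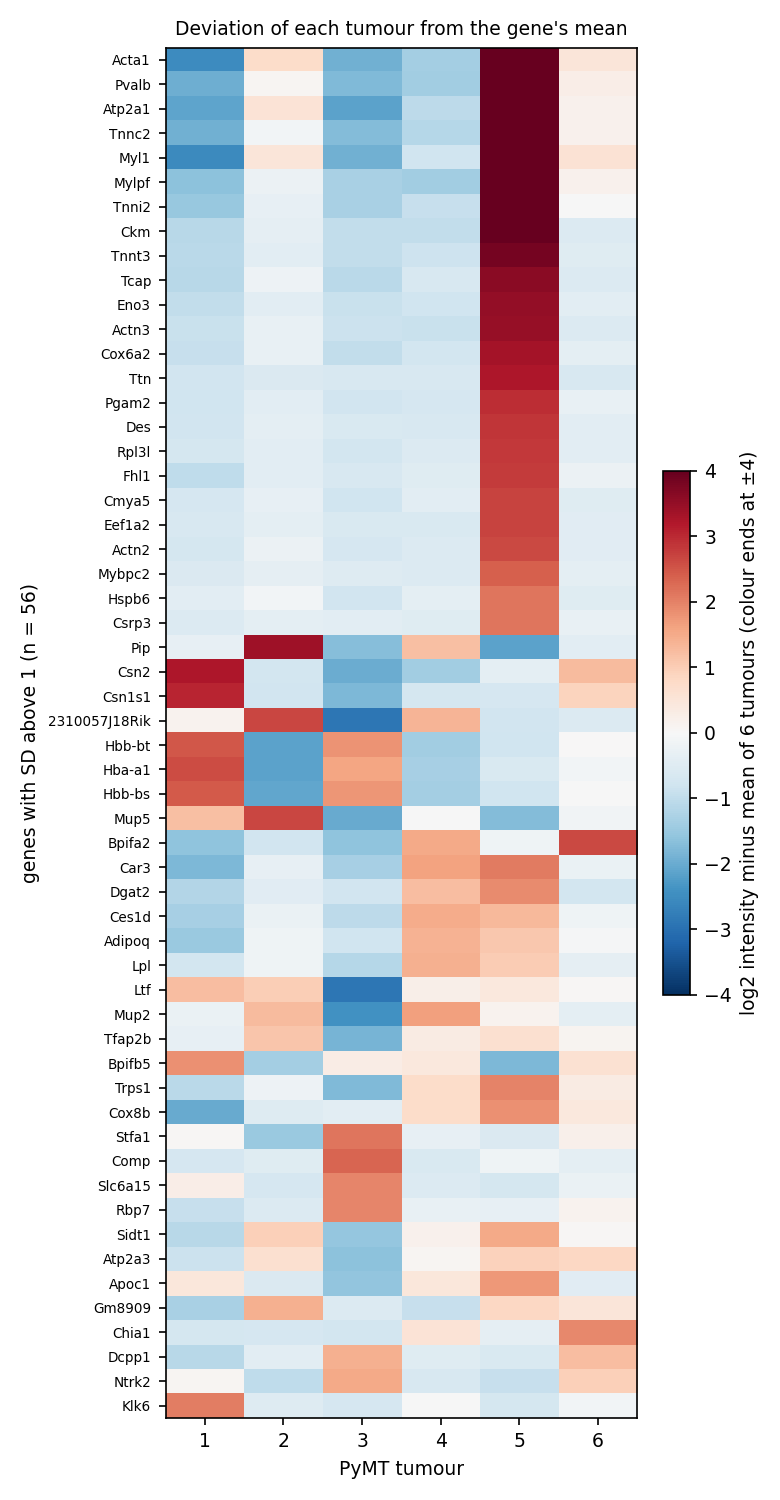
Deviation of each PyMT tumour (columns) from the gene's mean over the 6 tumours, in log2 units, for the 56 genes with an SD above 1 (rows, grouped by pattern, colour ending at 4 above and below). The block of 24 genes at the top is red for tumour 5, while the genes below it differ in which tumour is highest.

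Tumours 5 and 3 accounted for most of the largest deviations. For each of the 100 genes with the largest SD, the tumour farthest from the median of the 6 was noted. This was tumour 5 for 41 genes and tumour 3 for 31, against 11, 6, 7 and 4 for tumours 1, 2, 4 and 6. Tumour 5 was almost always high (40 of 41), and tumour 3 was high for 15 and low for 16. Over all 5369 genes the share of tumour 5 was lower, at 24.3%. The share of tumour 3 was 29.0%, so its count among the 100 genes was close to its share of all genes. Tumour 4 had the lowest share, 4.28%. A single tumour held more than 50% of the squared deviation in 58 of the 100 genes and in 37 of the 56. Both the ranking by SD and the intensity limit favour such genes, and the share over all genes is not given here. With the 50 genes of largest SD the share of tumour 5 was 58%, and with 200 genes it was 35%.

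**Figure D3:**
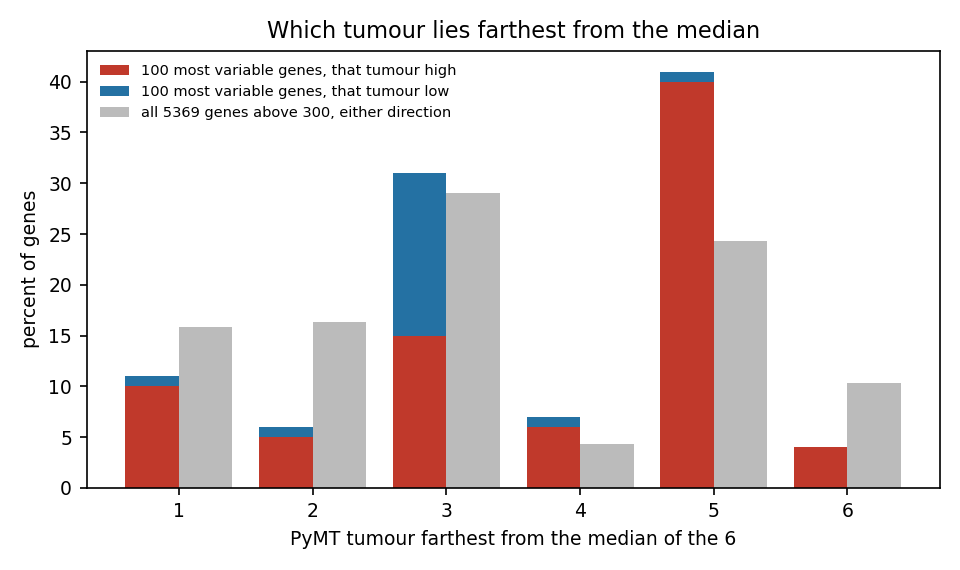
Percentage of genes (vertical axis) for which each PyMT tumour (horizontal axis) lies farthest from the median of the 6, for the 100 genes with the largest SD, split by direction, and in grey for all 5369 genes. Tumour 5 leads among the most variable genes with 41%, nearly all of it high, and tumour 3 follows with 31% split between high and low. For tumour 3 this is close to its share of all genes, 29.0%.

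Tumours 5 and 3 also stood farthest from the rest as whole arrays. Across the 5369 genes the Pearson correlation between arrays ran from 0.8739 for tumours 3 and 5 to 0.9741 for tumours 4 and 6, where genes are the points and are not independent. The mean correlation with the other arrays was lowest for tumour 5 (0.9194) and tumour 3 (0.9261) and highest for tumour 4 (0.9586). In a principal component analysis the leading axis carried 52.8% of the variance and placed tumour 5 at 25.89 and tumour 3 at -22.40, with the other tumours between -11.51 and 12.74. The next axis carried 20.6% and separated tumours 1 and 2 (14.40 and 10.20) from tumours 3 and 5 (-12.23 and -10.36). RNA quality and the position of each sample on a chip are not in the labels, and their part was not tested.

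In some gene groups no gene was variable, yet the same tumour was highest or lowest for most members. Class I antigen presentation brings peptides of intracellular proteins to the cell surface. Of its 11 genes above 300 none had an SD above 1, 10 were highest in tumour 2 and 9 lowest in tumour 3. Over all genes above 300 these shares were 19.6% and 26.3%. The list mean was 10.43, 11.06, 9.95, 10.58, 10.71 and 10.46. H2-D1, a class I heavy chain, read 12.41, 13.94, 12.14, 12.78, 13.62 and 13.23, and B2m, the invariant light chain, 13.40, 13.81, 12.41, 13.40, 13.70 and 13.58. Probes for the H2 class I genes resemble each other and may detect several members.

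Interferon response genes had the same highest and lowest tumours. Of 23 above 300 none was variable, 15 were highest in tumour 2 (19.6% of all genes) and 19 lowest in tumour 3 (26.3%), with list means of 9.96, 10.23, 9.22, 9.61, 9.94 and 9.84. Oas2, an enzyme that senses double-stranded RNA, read 9.52, 9.70, 7.66, 8.92, 9.08 and 9.21, and Igtp, an interferon-induced GTPase, 10.44, 10.86, 9.04, 9.93, 10.41 and 9.87. The core of the interferon-stimulated response element, searched on both strands as the letters GAAA, any 2 bases and GAAA again, was present in 8 of the 16 interferon genes with a promoter entry and in 936 of 27025 genes (3.46%). Windows of a gene with a single match and of a gene with overlapping matches are shown with all matches in capitals.
Gbp2 (chr3:142620577-142620636, plus strand): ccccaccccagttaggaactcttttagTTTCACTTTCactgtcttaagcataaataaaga
Isg15 (chr4:156200864-156200923, minus strand): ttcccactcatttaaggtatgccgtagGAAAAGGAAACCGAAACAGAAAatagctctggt

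Class II presentation was led by another sample. Its 6 genes above 300 had a median SD of 0.32, and 5 were highest in tumour 5 (19.2% of all genes). Cd74, the invariant chain, had the largest SD of them (0.71) and read 11.04, 12.28, 11.17, 11.95, 12.96 and 11.71. No B or plasma cell gene of 10 with a probe, and 2 of 20 T and NK cell genes, had a mean above 300, so most lymphocyte probes stayed near the median of the array.

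Transcripts of the mitochondrial genome were highest in tumours 4, 5 and 6. Of 7 such genes with a probe 6 were above 300. Their mean was 11.16, 10.90, 10.57, 11.88, 11.85 and 11.74 and their median SD 0.70. ND1, a subunit of complex I, read 11.28, 11.08, 10.58, 12.49, 11.96 and 11.94. Tumours 4, 5 and 6 also had the highest values for ND4, ATP6, COX2 and CYTB, while ND5 was high in tumours 5 and 6 alone. Tumours 4 to 6 are also the last 3 of the 6 arrays in deposit order, with arrays of the other genotype deposited between them and the first 3, and the part of a shared run or chip was not tested. The oxidative phosphorylation genes of the nucleus had a narrower range: the mean of 54 of them lay between 11.87 and 12.11 and their median SD was 0.17, with tumour 2 lowest for 32 (14.4% of all genes).

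Proliferation genes were graded in a narrow range. The 15 mitosis genes above 300 had list means of 9.97, 9.61, 9.86, 9.57, 9.18 and 9.41, with 11 highest in tumour 1 (17.3% of all genes) and 10 lowest in tumour 5 (25.3%). Cdk1, the kinase that drives entry into mitosis, read 9.95, 9.31, 10.09, 9.48, 8.73 and 9.49. The 15 S phase genes had the same top and bottom samples, with list means of 9.56 in tumour 1 and 8.90 in tumour 5. Tumour 5 was thus the highest for muscle and adipocyte genes and the lowest for proliferation genes, and the part of the muscle and fat RNA in the latter was not tested.

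**Figure D4:**
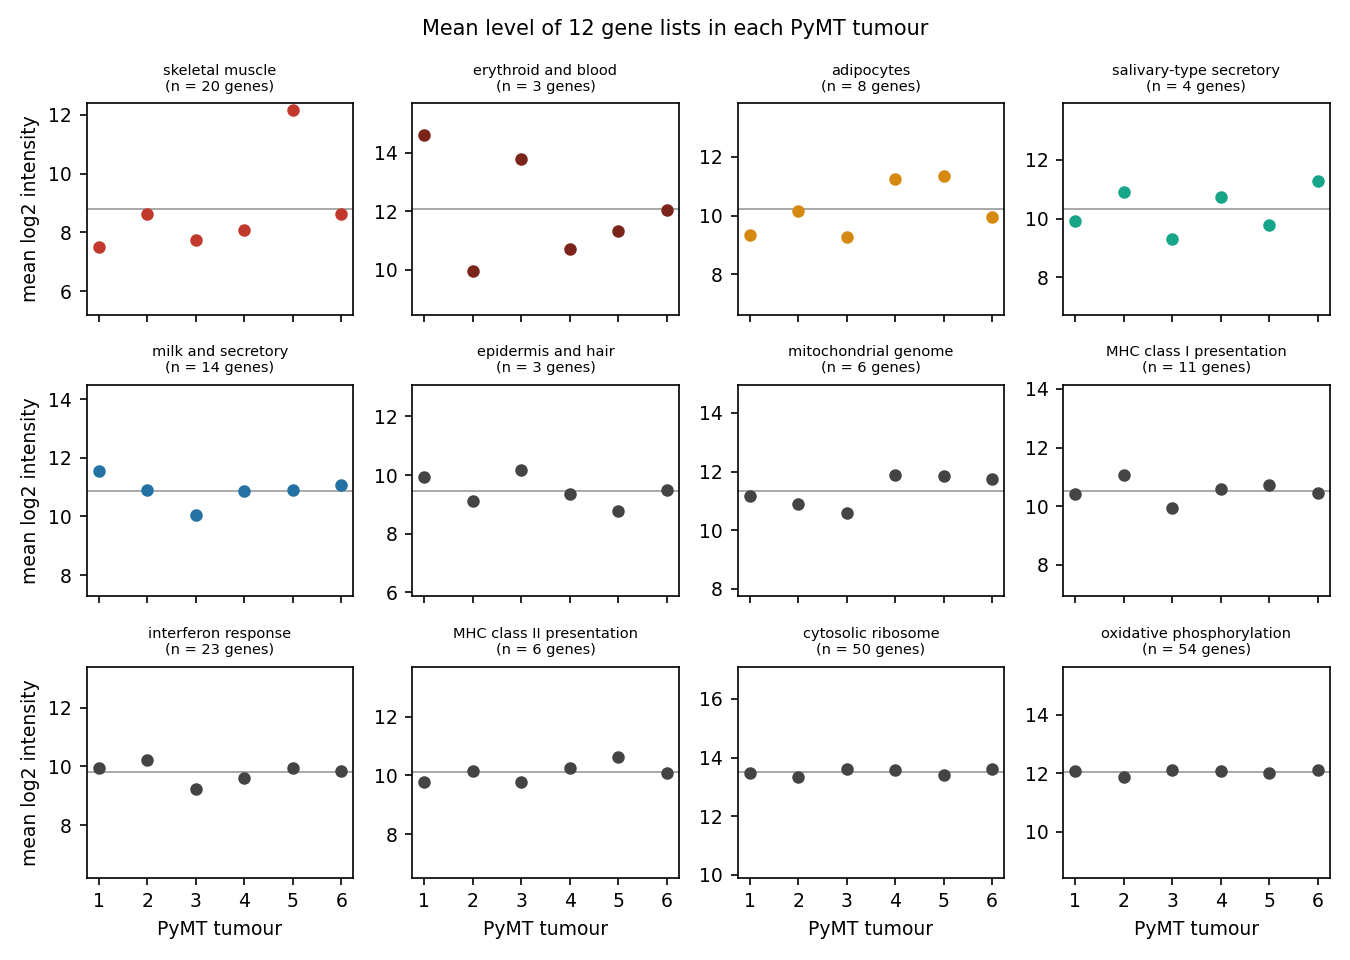
Mean log2 intensity (vertical axes, each spanning the same number of log2 units around the list mean, drawn as a grey line) of the genes above 300 in each of 12 lists, for PyMT tumours 1 to 6 (horizontal axes). Skeletal muscle genes stand out in tumour 5 at 12.16, the globins range from 9.96 to 14.59, and the ribosome and oxidative phosphorylation lists vary little.

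Of the 33 lists with at least 3 genes above 300, 9 had a mean that spanned more than 1 log2 unit over the tumours, namely skeletal muscle, globins, adipocytes, salivary-type secretory genes, milk genes, epidermis, mitochondrial genome, class I presentation and interferon response. The cytosolic ribosome was among the steadiest, with a median SD of 0.17 over 50 genes and a list mean between 13.34 and 13.62. Genes often used as references differed from each other in this respect. Ppia, cyclophilin A, had an SD of 0.05 and Gusb, beta-glucuronidase, an SD of 0.06. Ppia lies near the top of the scale, where differences are compressed. Actb and Gapdh had SDs of 0.28 each. Pgk1, a glycolytic enzyme that is also induced by hypoxia, varied most of the 13 (0.64), at 10.90, 9.66, 11.07, 9.77, 9.68 and 10.46.

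Second probes were not used in the choice of genes, but they give only a partial check. The limit of 300 applied to them as well, and those of Myl1, Tcap, Actn3, Ttn, Eef1a2 and Actn2 passed it only through tumour 5. Tumour 5 was thus bound to be highest on them. Several others are probes of Hbb-bt and Hbb-bs, which cannot be told apart with certainty. Of the 100 genes with the largest SD 29 had at least 1 other probe with a mean above 300, 39 probes in all. The same tumour was highest on 38 of the 39 (97.4%) and the same tumour lowest on 32. Over all genes above 300 the highest tumour was the same for 970 of 1609 other probes. The median SD was 0.93 on the other probes against 1.20 on the probes used, and 19 of the 39 had an SD above 1. The second probe of Mylpf read 12.23 in tumour 5 and 7.50 to 8.44 in the others, and the second probe of Ltf, far dimmer, was again lowest in tumour 3 (7.44 against 7.87 to 9.43). Kit was the exception, with tumour 2 highest on its other probe and tumour 5 on the probe used.

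**Figure D5:**
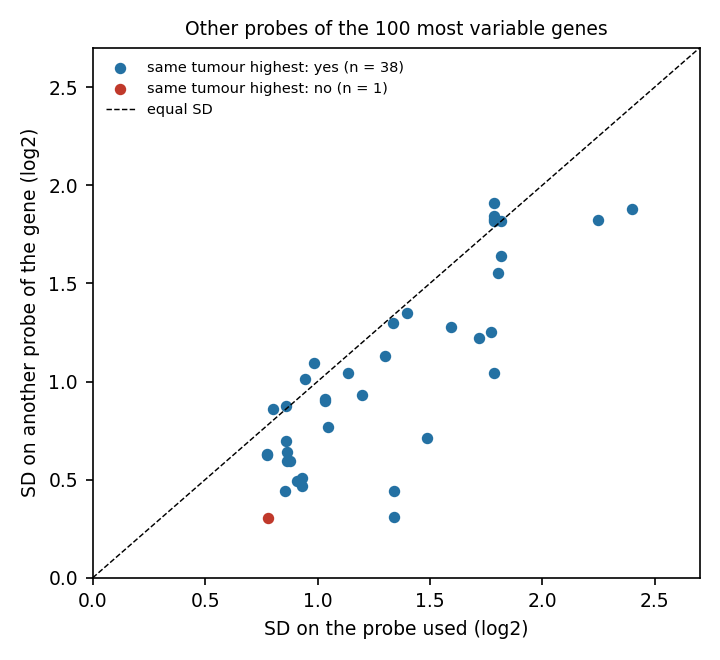
SD of log2 intensity over the 6 PyMT tumours on another probe of the same gene (vertical axis) against the SD on the probe used (horizontal axis), for the 39 other probes above 300 of the 100 genes with the largest SD; the dashed line marks equal SD. The same tumour is highest on 38 of them, and most points lie on or below the line.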

How the data were processed

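Per the labels' protocols, RNA of frozen tumours was amplified and labelled as biotinylated cRNA, and a core facility ran the Illumina BeadChips. The deposited table holds the authors' probe intensities on a linear scale. For background treatment, normalization and detection calls, the steps taken were not given in the sources used here. On each array the lowest intensity was 116.7, so no background subtraction was visible, and fold differences of dim probes understate differences in RNA.

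The platform annotation gave 1 gene symbol to 34885 of 45281 probes, several to 18 and no symbol to 10378. By gene identifier, 34807 matched the RefSeq gene table. Values were put on the log2 scale in Python 3.11.15 with pandas 2.3.3 and numpy 2.4.6. A gene was its probe with the highest mean over the 6 PyMT arrays. Genes with an arithmetic mean intensity of 300 or less (13688 of 19057) were left out of the ranking by SD. Promoter sequences are from RefSeq, build GRCm38.p6.

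The design gives no comparison within 1 genotype, so no p-value was computed and SDs describe these samples, which may differ for technical reasons. Named genes are the 30 with the highest mean, the 30 with the largest SD, and up to 4 members of each list by SD, leaving out clone-named and predicted models, with exceptions stated in the text. For reference genes and lists of abundant genes the 4 brightest could be named too. The 36 gene lists (950 entries, 820 with a probe), the members and the thresholds were chosen with earlier results of these data known. The precision is limited by the number of arrays.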

Additional observations from a re-analysis of the deposited data

Results flagged for a closer look

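In 4 of the 33 gene lists and in 19 of the 60 genes named for their mean or SD, 1 tumour stood apart from the other 5: its gap to the nearest of them, as a share of the whole range, was above 0.625, Dixon's 95% limit for 6 values. Chance alone gives about 1 such case in 20 groups, and over all 5369 genes above 300 there were 265 (4.94%). That rate does not apply to the 30 genes named for a large SD between the same tumours, which hold 16 of the 19, since such a choice favours a tumour that stands apart. Nor does it apply to the lists, which were chosen with earlier results of these data known. The skeletal muscle list also holds genes that passed the intensity limit only through tumour 5.

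Tumour 5 stood apart on the high side for the mean of the skeletal muscle list, with a gap of 0.755 of the range, and for the mean of the translation factors, with 0.753. The latter mean spanned only 0.12 log2 units and its direction rested on Eef1a2. Without that gene, a comparison chosen after seeing the data, tumour 5 was the lowest for the remaining 13 genes, at 12.40 against 12.52 to 12.56. Among the muscle genes of the contractile apparatus and its calcium switch the gap was 0.669 for Pvalb, 0.686 for Tnnc2, 0.698 for Mylpf, 0.73 for Tnni2, 0.867 for Tnnt3, 0.807 for Tcap, 0.863 for Actn3, 0.954 for Ttn and 0.892 for Des. The values for the muscle enzymes and other muscle genes were 0.855 for Ckm, 0.876 for Eno3, 0.86 for Pgam2, 0.845 for Cox6a2, 0.908 for Rpl3l and 0.797 for Fhl1. The gap was smaller where tumours 2 and 6 were raised as well, as for Pvalb, and largest for Ttn, which was near the background in the other 5 tumours. These genes share a source in 1 array and are not independent cases.

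Tumour 3 stood apart on the low side for Ltf (0.714) and on the high side for the mean of 6 endothelial genes (0.691), whose whole range was 0.35 log2 units. Tumour 1 was high for the mean of 11 immediate early genes (0.675), over a range of 0.44. The remaining cases lay within narrow ranges at the top of the scale: Rplp1 was low in tumour 4 (0.814), Eef1a1 high in tumour 6 (0.773) and Itm2b high in tumour 2 (0.648), with spans of 1.15-fold, 1.05-fold and 1.16-fold.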

How the results depend on the processing

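The number of genes with an SD above 1 was 56. It was 36 with the mean of all probes of a gene, 85 with the lowest value of each array subtracted and an offset of 16, 34 with the median absolute deviation in place of the SD, 108 with an SD above 0.75 and 24 with an SD above 1.5. Raising or lowering the intensity limit, using the geometric mean, choosing probes over all 11 arrays, centring arrays or ranking by range gave 41 to 65. Leaving out each tumour in turn gave 37 (without tumour 5) to 68 (without tumour 6). The number of variable genes in a list was 32, was 17 with the median absolute deviation, 18 to 37 with a tumour left out, and 22 to 48 under the other settings. Of the 30 brightest genes 21 were shared with the mean of all probes and 30 under each other setting that recomputed them. Between 7 and 10 lists spanned over 1 log2 unit, against 9. Among the named genes 2518 of 2574 recomputed SDs stayed on the same side of 1, 32 fell to 1 or less and 24 rose above it, and of 612 recomputed list counts 577 stayed within 1.5 times. With other probes above 200 in place of 300, the same tumour was highest on 92.0%. The cause of these shifts was not tested, apart from thresholds and samples that differ by construction. No paired analysis was possible because only 1 group was used and the labels give no replicate numbers.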

Other observations

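Other gene groups had smaller differences between the tumours. Of 13 hypoxia genes above 300, 7 were highest in tumour 3 (25.7% of all genes above 300) and 6 lowest in tumour 2 (14.4%), with list means of 9.97, 9.38, 10.03, 9.42, 9.60 and 9.78. Car9, a carbonic anhydrase of the cell surface, read 8.88, 8.18, 9.72, 8.13, 7.91 and 9.07, and Egln3, a prolyl hydroxylase, 10.85, 10.32, 11.63, 10.42, 9.97 and 10.44. Aldoa, an aldolase that is also abundant in muscle, did not share this order and was highest in tumour 5 (13.09 against 11.00 to 11.85). Of 18 macrophage genes 11 were highest in tumour 6 (11.3% of all genes). Lyz2, lysozyme, read 11.66, 10.62, 11.20, 11.61, 10.59 and 12.89, while the complement gene C1qb varied little (SD 0.14). Arg1, arginase, was highest in tumour 2 instead (12.53 against 10.92 to 11.92).

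Matrix and myoepithelial genes were led by other tumours again. Of 15 collagen and fibroblast matrix genes 8 were highest in tumour 4 (6.93% of all genes), among them the proteoglycan gene Dcn at 10.60, 11.06, 9.67, 11.64, 11.01 and 10.78. The basement membrane collagen gene Col4a1 was highest in tumour 2 (10.92 against 9.34 to 10.47). The smooth muscle genes Acta2 and Mylk, made by myoepithelial cells and vessel walls, were both highest in tumours 2 and 4 and lowest in tumour 6. Acta2 read 12.63, 14.00, 13.55, 13.85, 12.71 and 12.12, and Mylk 10.34, 11.73, 10.72, 11.79, 10.60 and 9.85. Acta2 was low in tumour 5, where the skeletal actin gene Acta1 was highest. The basal keratin genes Krt14 and Krt17 were highest in tumour 1 (12.56 and 10.47) and not in tumours 2 or 4. Xist, the RNA that coats the inactive X chromosome, had an SD of 0.86 among these female tumours, at 9.68, 9.43, 8.51, 10.31, 10.75 and 10.67. Tumours 4 to 6, the last 3 in deposit order, were above tumours 1 to 3 on this probe and on another. The part of a shared run or chip was not tested.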
